A study of Mus musculus with 2 samples.

Results

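The Six-family and Eya-family genes listed for mouse nephron progenitor cells are described here, taken as the protein-coding rows whose symbol is the family name followed by a digit. They are 6 of the 10617 gene symbols in the deposited table, namely Six2, Six3, Six4, Six5, Eya1 and Eya4. GENCODE annotates 10 protein-coding genes under such names in the mouse, and the other 4 were not analysed here. The table lists only genes with a corrected p-value of at most 0.05 in the authors' comparison, so that 100% of listed genes passed it and a listed gene had already been found to differ between the libraries.

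The cells came from mouse embryonic kidneys at embryonic day 15.5. The KO library is from Six2CreGFP+;p53f/f embryos, in which both Trp53 alleles are floxed and can be cut by Cre, and the WT library from Six2CreGFP+;p53+/+ embryos. Both groups carry the Six2CreGFP transgene, which couples Cre recombinase and green fluorescent protein to Six2 and marks the cells for sorting, both are of mixed CD1 and C57BL strain, and there was 1 library per genotype. Deletion is therefore limited to cells that make Cre or descend from cells that made it, and the sort itself selects for activity of the Six2 transgene. The sources used here do not give how many embryos went into a library, nor whether transgene transcripts hold Six2 sequence that would be counted as Six2.

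The Six-family proteins are homeodomain transcription factors, named after the fly gene sine oculis. Eya proteins, named after eyes absent, do not bind DNA themselves but join them as coactivators, and they also carry a phosphatase domain. In the developing kidney, Eya1 is needed for the progenitor field to form, and Six2 keeps the progenitors of the cap mesenchyme from turning into epithelium too early, so that a pool is left to build further nephrons. Pax2 and the Hox11 genes act with Eya1 upstream of Six2 and Gdnf, the signal that draws the ureteric bud into the mesenchyme. The other members are better known from other tissues than as regulators of this pool.

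Upstream sequence is shown for 4 genes because they had the higher density in KO and their densities lay far apart: Six2 for its abundance, Six3 as its neighbour on chromosome 17, Six4 and Eya4 as the members of low density. The RefSeq promoter table (GRCm38.p6) matched 5 of the 6 symbols, all but Eya1. Each sequence is the 250 bases before the annotated start, 5′ to 3′ on the strand of the gene, and capitals mark the CCAAT box on either strand. They lie at chr17:85688255-85688504 on the minus strand for Six2, chr17:85620584-85620833 on the plus strand for Six3, chr12:73113426-73113675 on the minus strand for Six4 and chr10:23349891-23350140 on the minus strand for Eya4.
Six2: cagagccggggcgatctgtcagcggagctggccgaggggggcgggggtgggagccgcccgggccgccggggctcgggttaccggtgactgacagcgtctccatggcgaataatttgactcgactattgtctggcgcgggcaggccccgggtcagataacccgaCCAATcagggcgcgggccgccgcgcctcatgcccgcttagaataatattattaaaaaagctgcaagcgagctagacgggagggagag
Six3: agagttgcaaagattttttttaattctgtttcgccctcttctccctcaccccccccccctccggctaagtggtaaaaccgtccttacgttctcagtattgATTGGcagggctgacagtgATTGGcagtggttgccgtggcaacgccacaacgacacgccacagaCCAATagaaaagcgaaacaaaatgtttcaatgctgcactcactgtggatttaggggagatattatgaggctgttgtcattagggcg
Six4: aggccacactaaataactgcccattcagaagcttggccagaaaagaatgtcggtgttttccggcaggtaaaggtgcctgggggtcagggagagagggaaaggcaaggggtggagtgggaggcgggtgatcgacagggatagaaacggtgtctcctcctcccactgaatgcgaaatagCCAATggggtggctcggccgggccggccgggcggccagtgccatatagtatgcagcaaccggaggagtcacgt
Eya4: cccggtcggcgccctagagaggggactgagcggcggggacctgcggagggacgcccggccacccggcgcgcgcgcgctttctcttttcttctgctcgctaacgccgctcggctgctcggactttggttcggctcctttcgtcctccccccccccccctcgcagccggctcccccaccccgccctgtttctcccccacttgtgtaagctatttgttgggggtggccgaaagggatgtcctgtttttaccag
The Six2 sequence holds 1 CCAAT box, Six3 holds 3 and Six4 holds 1, whereas Eya4 and Six5 hold none. Of 32851 mouse promoter windows of the same length, 33.8% hold at least 1 such box and 2.79% hold at least 3. The GC box GGGCGG, on either strand and without overlap with the CCAAT box, was found at 2 places for Six2 and at 1 place each for Six4, Six5 and Eya4, and in 32.7% of all windows. The TATA box TATAAA (12.4% of all windows), the binding motif of Six-family factors TCANGTTTC (0.989%), the TCF motif CTTTGA (13.8%) and the p53 half-site (7.13%) were in none of the 5 windows, searched on both strands. The windows of Six2 and Eya4 are rich in CG pairs, with 26 and 25 against a median of 6 over all windows, and Six4 and Six5 have 13 each and Six3 10. The RefSeq start of Six3 lies 7226 bases inside the interval that the deposited table gives for the gene, and that of Six4 612 bases. The windows of Six3 and Six4 thus lie wholly within those intervals.

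Density was given per library, as reads corrected for the length of the gene and the size of the library (RPKM), which allows genes to be compared per length. Six2 was by far the most abundant member in both libraries. Its density was 509 RPKM in KO and 482 RPKM in WT, which ranked it 97th and 107th of all listed genes. Among the 403 listed protein-coding genes that the deposited table annotates with DNA-binding transcription factor activity, Six2 ranked 1st in KO and 1st in WT.

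Eya1 followed at 84.1 RPKM in KO and 66.8 RPKM in WT. Six5, a family member best known from the myotonic dystrophy locus, stood at 51.1 RPKM in KO and 53.4 RPKM in WT. Six3, known for its role in the forebrain and eye, had 27.2 RPKM in KO and 22.6 RPKM in WT. It was thus present well above the density floor of 7.30 RPKM, the median over listed genes of the mean of both libraries. Eya4, known for roles in hearing and the heart, had 18.7 RPKM in KO and 14.98 RPKM in WT. Six4, known for roles in muscle and kidney, had 5.76 RPKM in KO and 4.33 RPKM in WT and was the only member under the floor. The order of the 6 levels was the same in both libraries, and with 1 library per genotype no spread between replicates can be set beside it.

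**Figure D1:**
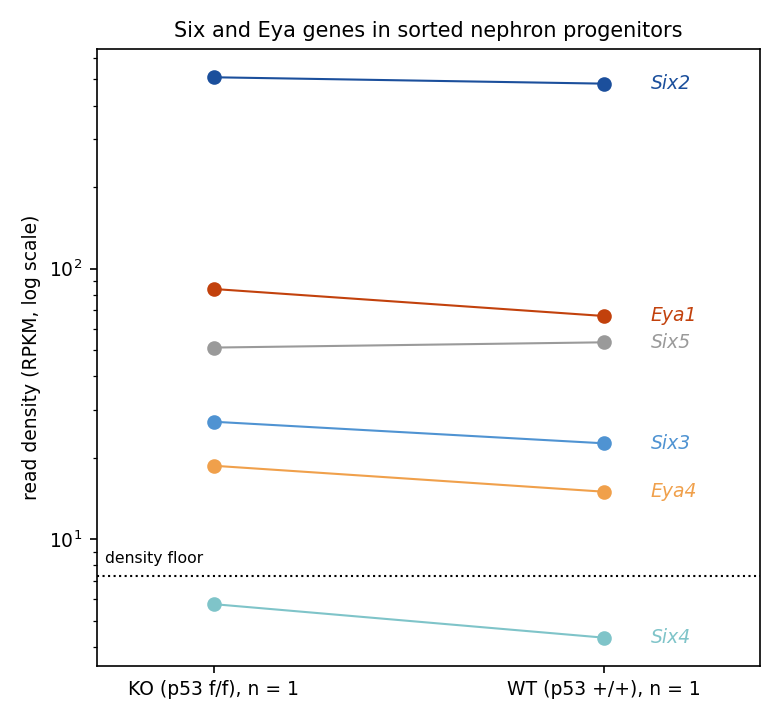
Read density in RPKM on a log scale for the 6 members in the KO library (left) and the WT library (right), 1 library each; lines join the values of a gene and the dotted line is the density floor of 7.30 RPKM. Six2 lies far above the others at 509 RPKM in KO and 482 RPKM in WT, and only the Six5 line is lower in KO.

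The comparison of KO with WT asks whether the level of these regulators depends on p53 in the progenitors. The targeted gene checks the labels: Trp53 stood at 5.38 RPKM in KO and 33.9 RPKM in WT, a density that also covers exons outside the deleted part. Of the 6 members, 5 had a higher density in KO and 1 a lower one. The share higher in KO was 36.1% of all listed genes and 44.2% of genes over the floor. All 6 lay within 1.5-fold, as did 93.6% of all listed genes. Differences below are log2(KO + 1) minus log2(WT + 1) on the RPKM values, which understates those of low genes, and ratios are KO over WT density with exact 95% Clopper-Pearson intervals on estimated reads. The intervals cover counting error only, and no test of the genotypes is possible with 1 library per group.

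Six4 had the highest ratio of the members, 1.33 (interval 1.28 to 1.38), and a log2 difference of 0.34. Eya1 had a ratio of 1.26 (interval 1.24 to 1.27) and a log2 difference of 0.33. Eya4 was close to it, at a ratio of 1.25 (interval 1.22 to 1.28) and a log2 difference of 0.30. On the densities as deposited both Eya genes differed by nearly the same factor. Genes over the floor of like GC content and length had a median log2 difference of 0.12 for Eya1 and 0.21 for Eya4. Both Eya genes lay above these medians. Taken relative to them and shifted by the overall median of -0.072, Eya1 was at 0.14 and Eya4 at 0.020. Eya1 was 4.50 times as abundant as Eya4 per length in KO and 4.46 times in WT. For Six3 the ratio was 1.20 (interval 1.17 to 1.23) and the log2 difference 0.25.

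Six2 was nearly level between the libraries, with a ratio of 1.06 (interval 1.05 to 1.07) and a log2 difference of 0.078. Six5 was the member with the lower density in KO, at a ratio of 0.956 (interval 0.934 to 0.979) and a log2 difference of -0.063, which turned to 0.0083 when both libraries were centred on the median difference of the genes over the floor. That median was itself -0.072, so Six5 sat close to the middle of these genes and all 6 members lay above it. Of the genes over the floor, 95.7% had a lower log2 difference than Six4, 95.1% than Eya1, 93.9% than Eya4, 90.6% than Six3, 62.1% than Six2 and 52.2% than Six5. In absolute size, 13.8% of the genes over the floor differed by less than Six2 and 6.82% by less than Six5, in a table that holds only 167 genes over the floor within 0.05 of 0 on the log2 scale.

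In the authors' deposited table, which scales the KO densities up by a further factor of 1.04, Six4 was 1.38-fold, Eya1 1.31-fold, Eya4 1.30-fold, Six3 1.25-fold and Six2 1.10-fold higher in KO. The authors' deposited table gives Six5 a signed fold change of -1.01, the minus sign marking a gene lower in KO. Without that scaling its ratio was 0.956 (interval 0.934 to 0.979). The p-value that placed Six5 among the listed genes need not belong to the scaled fold change. The authors' p-values compare these 2 libraries by their reads and not the genotypes. Six5 had an estimated 13150 reads in KO and 14648 in WT.

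**Figure D2:**
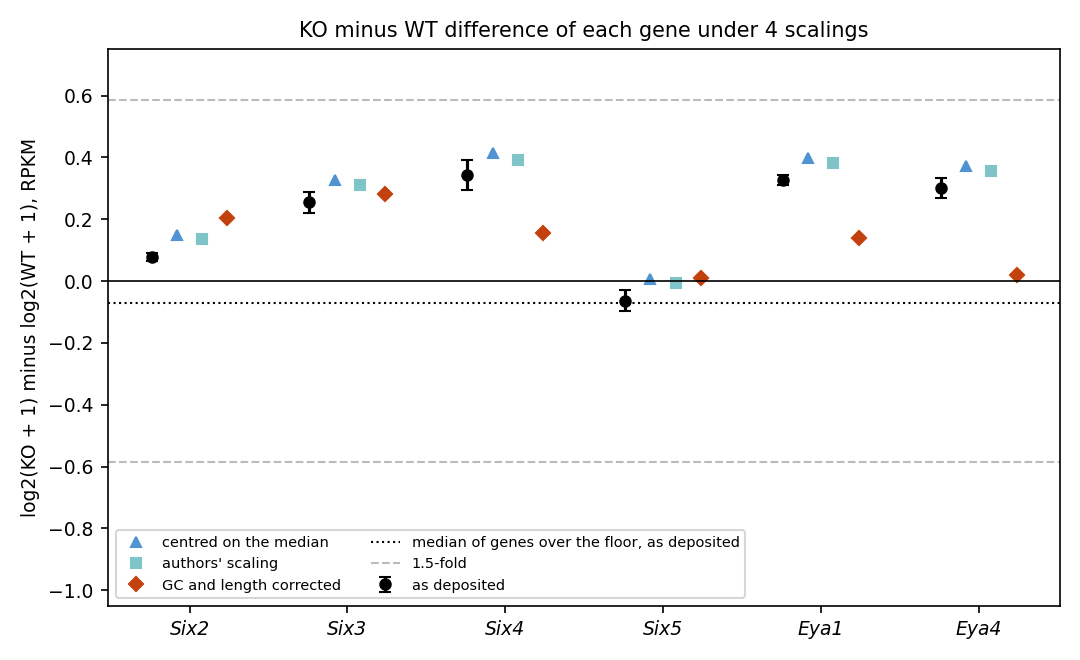
Difference of each member, log2(KO + 1) minus log2(WT + 1) on RPKM, from the densities as deposited (black, with exact 95% counting intervals), centred on the median difference (triangles), with the authors' scaling (squares) and after correction for GC content and length (diamonds). All values of the 6 members lie inside the dashed 1.5-fold lines, and after the correction Eya4 and Six5 lie near 0.

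Ratios taken within a library do not depend on how the libraries were scaled against each other, but they carry any difference that comes with base composition or length. The Eya1 to Six2 ratio was 0.165 in KO and 0.139 in WT, and the summed Eya to summed Six-family density was 0.173 in KO and 0.145 in WT. Within the Eya pair the balance was level, with Eya4 at 0.222 of Eya1 in KO and 0.224 in WT. Six2 made up 85.8% of the summed Six-family density of 593 RPKM in KO and 85.7% of 563 RPKM in WT. Eya1 made up 81.8% of the summed Eya density of 103 RPKM in KO and 81.7% of 81.8 RPKM in WT. The Six3 to Six2 ratio was 0.0534 in KO and 0.0469 in WT, and the Six5 to Six2 ratio 0.100 in KO and 0.111 in WT. After correction for base composition and length, the log2 difference was 0.14 for Eya1 and 0.020 for Eya4 against 0.20 for Six2, so the higher Eya1 to Six2 ratio in KO was lost and turned round. With GC bins alone, Eya1 and Six2 were level at 0.15.

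The members differ in base composition, and the difference between the libraries varied with the GC content of the genes. With the genes over the floor in 5 groups of rising GC content, the median log2 difference was 0.17, 0.081, -0.083, -0.12 and -0.15. Eya4 (41.3% GC), Six4 (44.8%) and Eya1 (46.2%) are poor in GC and have long summed exons of 9.42, 10.9 and 7.81 kb, whereas Six5 (61.1%, 3.01 kb) and Six2 (61.2%, 2.12 kb) are GC-rich and short, and Six3 (53.4%, 5.45 kb) lies between them. Genes over the floor in the GC and length bin of Eya4 had a median difference of 0.21, and those in the shared bin of Eya1 and Six4 had one of 0.12. The bin of Six2 had a median of -0.20, that of Six5 -0.15 and that of Six3 -0.098.

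When each value was taken relative to its bin and shifted by the overall median, the order of the members changed. Six3 then had the highest log2 difference, 0.28, followed by Six2 at 0.20, Six4 at 0.15, Eya1 at 0.14, Eya4 at 0.020 and Six5 at 0.011. All 6 were above 0 on this scale, where 22.9% of all listed genes were. The bins hold only genes that passed the authors' p-value, so their medians leave out genes that differed less. How much of each difference comes with base composition or length was not tested.

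**Figure D3:**
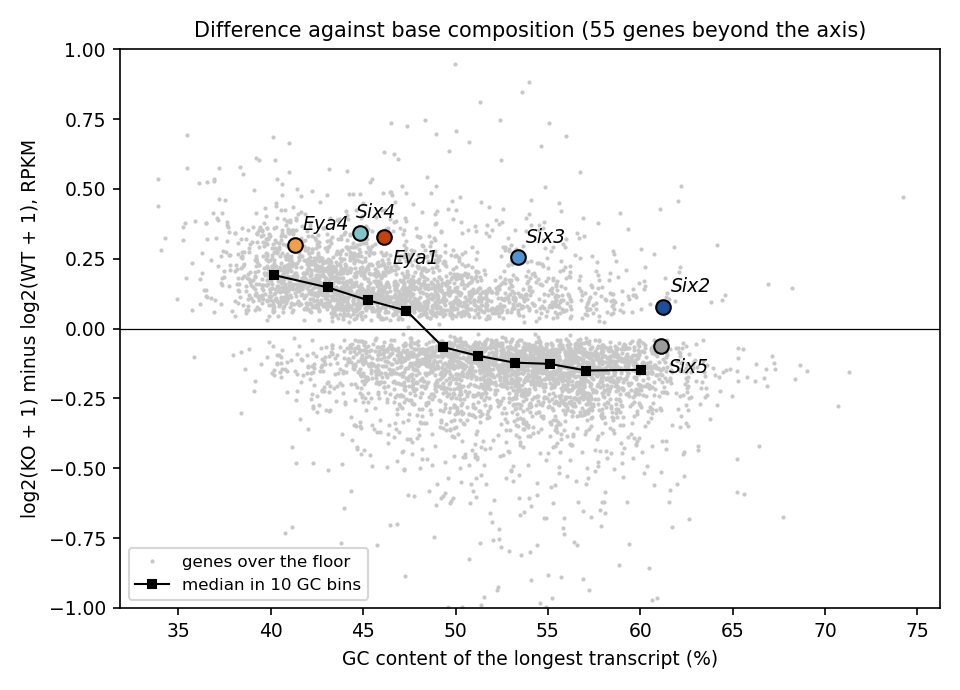
GC content of the longest transcript (%) against the difference, log2(KO + 1) minus log2(WT + 1) on RPKM, for genes over the floor (grey), with medians in 10 GC bins (black squares) and the 6 members (large circles; Six4 is under the floor). Eya4, Six4 and Eya1 lie on the low-GC side where the medians are above 0, Six2 and Six5 on the high-GC side where they are below 0, and 55 genes lie beyond the axis limits of 1 and -1.

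The cell type was checked on marker genes, without Six2, on whose transgene the cells were sorted, and Eya1. All 8 other nephron progenitor markers were listed, from 8.58 to 72.2 RPKM in KO and from 9.96 to 77.4 RPKM in WT. Of these 8, 6 were lower and 2 higher in KO, and their summed density was 329 RPKM in KO and 358 RPKM in WT. Of the 44 listed markers of other cell types, 43 were lower in KO, where 63.9% of all listed genes were. Summed density was 105 RPKM in KO and 214 RPKM in WT for 10 stromal markers (9 lower), 45.7 RPKM in KO and 60.6 RPKM in WT for 10 ureteric bud markers (10 lower), and 23.6 RPKM in KO and 632 RPKM in WT for 8 erythroid markers (8 lower). It was 1.61 RPKM in KO and 6.37 RPKM in WT for 8 endothelial markers (8 lower), and 2.00 RPKM in KO and 15.1 RPKM in WT for 8 leukocyte markers (8 lower). None of these markers was at 0 in either library. Their part in the differences of the members was not tested, and in bulk RNA fewer cells of a type and less RNA per cell cannot be told apart.

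Six2 (ENSMUSG00000024134) lies on chromosome 17 from 85684268 to 85688274 on the minus strand and Six3 (ENSMUSG00000038805) on the same chromosome from 85613608 to 85631813 on the plus strand, 52454 bases apart (GRCm38, deposited coordinates). No other listed gene lies between them. Six4 (ENSMUSG00000034460) is on chromosome 12 from 73099609 to 73114037, minus strand, and Six5 (ENSMUSG00000040841) on chromosome 7 from 19094594 to 19098549, plus strand. Eya1 (ENSMUSG00000025932) is on chromosome 1 from 14168954 to 14310200 and Eya4 (ENSMUSG00000010461) on chromosome 10 from 23104168 to 23349895, both on the minus strand. The exons of Six3 overlap those of the antisense genes Gm28528 and Six3os1 by 168 and 106 bases, or 3.08% and 1.95% of its exon length. The strand used in counting is not given in the sources used here, so a share of the Six3 reads may belong to them. The exons of the other 5 members overlap no exon of another annotated gene.

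Genes that act with the Six-family and Eya proteins mostly leaned the same way. The 10 partner names were chosen with earlier results of these data known, so the lean is a description only. Of these names 8 were listed and 7 passed the floor. Among those 7, 6 had more density in KO and 1 had less, where 44.2% of genes over the floor were higher. Their median log2 difference was 0.20, against -0.072 for all genes over the floor, and none of them reached 1.5-fold in either direction, where 0.659% of the genes past the floor did so upward and 2.41% downward. Dach1, a nuclear corepressor of the same network, had 17.5 RPKM in KO and 12.2 RPKM in WT, a log2 difference of 0.48. Pax2, the paired-box factor that acts with Eya1, had 72.0 RPKM in KO and 61.7 RPKM in WT. Sall1, a zinc finger factor of the cap mesenchyme, had 211 RPKM in KO and 184 RPKM in WT. Myc, whose protein joins Six2 and Eya1 in these cells, had 33.5 RPKM in KO and 27.5 RPKM in WT.

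Of the Hox11 genes, Hoxd11 had 78.8 RPKM in KO and 72.1 RPKM in WT, a log2 difference of 0.13 that turned to -0.10 after correction for base composition and length. Hoxc11 had 17.5 RPKM in KO and 25.1 RPKM in WT, a log2 difference of -0.50, and -0.40 after it. Mycn, which supports progenitor growth, was at 19.7 RPKM in KO and 17.96 RPKM in WT. Dach2, under the floor, had 0.935 RPKM in KO and 0.743 RPKM in WT. Hoxa11 and Smarca4 were not analysed here.

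Other transcriptional regulators of the progenitors did not lean that way. Of the 8 that passed the floor, 3 had more density in KO and 5 had less, where 44.2% of genes over the floor were higher. Their median was -0.092, close to the -0.072 of all genes over the floor. After correction for base composition and length it was -0.057. None reached 1.5-fold, where 0.659% of genes over the floor did so upward and 2.41% downward. Osr1, which marks the lineage before Six2, had 52.95 RPKM in KO and 69.2 RPKM in WT. Its log2 difference was -0.38, and -0.27 after the correction. Cited1, a coactivator found in the least committed progenitors, had 16.1 RPKM in KO and 23.6 RPKM in WT. Its log2 difference was -0.53, and -0.40 after the correction. Osr1 and Cited1 had the lowest log2 differences of this list. Higher in KO, as Six2 and Eya1 were, stood Hmga2 (log2 difference 0.12), Uncx (0.12) and Etv5 (0.042). After the correction Hmga2 was at -0.065. Wt1, a zinc finger regulator of the mesenchyme, had 41.2 RPKM in KO and 43.4 RPKM in WT, and Uncx, a homeodomain factor of the progenitors, had 162 RPKM in KO and 149 RPKM in WT.

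Of the signals and surface proteins of the cap mesenchyme, all 7 listed passed the floor. Among them 4 had more density in KO and 3 had less, where 44.2% of genes over the floor were higher. Their median of 0.087 turned to -0.057 after correction for base composition and length. Gdnf, the ligand whose gene Eya1, Pax2 and Hox11 proteins act on, had 59.5 RPKM in KO and 64.1 RPKM in WT. Itga8, an integrin of the cap mesenchyme, had 25.7 RPKM in KO and 20.05 RPKM in WT. Bmp7, a survival signal of the progenitors, had 107 RPKM in KO and 101 RPKM in WT. In the list of beta-catenin with TCF, TLE and related genes, 6 of 8 over the floor were higher in KO, where 44.2% of genes over the floor were. Their median was 0.096, and 0.042 after the same correction. Ctnnb1, the beta-catenin gene, had 192 RPKM in KO and 176 RPKM in WT, and Tcf7l1 had 46.4 RPKM in KO and 48.7 RPKM in WT.

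Genes switched on as progenitors commit and form the renal vesicle differed in both directions. Of 7 over the floor, 5 were higher in KO and 2 lower, where 44.2% of genes over the floor were higher. Their median was 0.13, and over all 11 listed the median was -0.20. Bmp2 was at least 1.5-fold higher, as were 0.659% of genes over the floor, with 15.6 RPKM in KO and 9.95 RPKM in WT. Lfng, a modifier of Notch receptors, had 5.87 RPKM in KO and 11.4 RPKM in WT. Osr2, a zinc finger factor, had 8.27 RPKM in KO and 15.3 RPKM in WT. Both were at least 1.5-fold lower, as were 2.41% of genes over the floor. Under the floor, Pou3f3, which codes for a transcription factor of the early nephron, had 1.93 RPKM in KO and 4.16 RPKM in WT, also at least 1.5-fold lower, as were 5.49% of all listed genes. Of the 44 listed markers of other cell types given above, 43 were lower in KO, where 63.9% of all listed genes were. Their part in the differences of the renal vesicle genes was not tested.

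The tyrosine phosphatase domain of Eya proteins acts on the histone variant H2AX. Of 4 listed genes of that pathway, each past the floor, 2 had more density in KO and 2 had less. The share higher in KO was 44.2% of genes over the floor. Their median was 0.013, and 0.057 after correction for base composition and length. H2afx, which codes for H2AX, had 335 RPKM in KO and 352 RPKM in WT, and Baz1b, which codes for the kinase that adds the phosphate Eya proteins remove, had 37.6 RPKM in KO and 35.2 RPKM in WT.

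**Figure D4:**
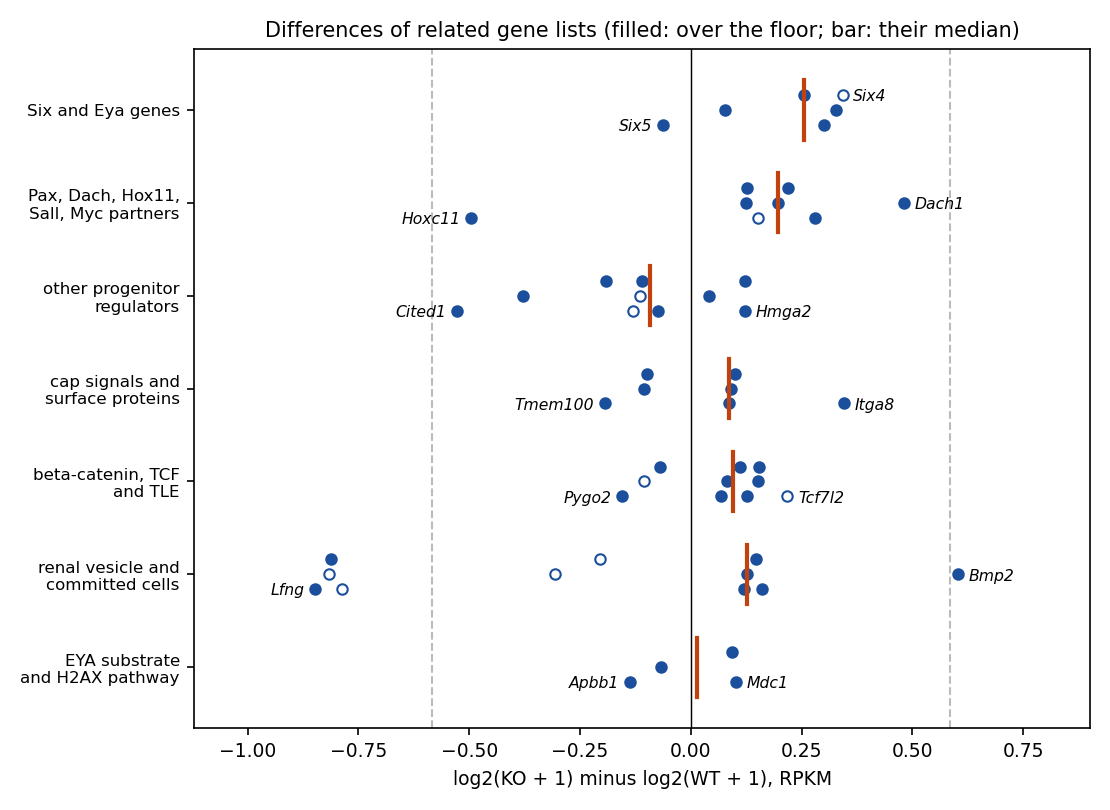
Difference of each listed gene, log2(KO + 1) minus log2(WT + 1) on RPKM, for the 6 members (top) and 6 related lists; filled circles are over the floor, open circles under it, red bars are medians over the floor, and dashed lines mark 1.5-fold. The partner list has a median of 0.20 with Hoxc11 far to the low side at -0.50, and the renal vesicle list spreads from Lfng at -0.85 to Bmp2 at 0.60.

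The protein-coding genes nearest to each member were taken over the 2 libraries by Euclidean distance between log2 densities, a measure of like level more than of like regulation. Nearest to Six2 were Pcbp1 (487 RPKM in KO and 478 RPKM in WT), Gm10250 and Hnrnpa0. Nearest to Eya1 were Dek (87.3 RPKM in KO and 65.2 RPKM in WT), Gm9833 and Gm16380, and nearest to Eya4 were Haus3, Bloc1s6 and Tnks. Gsk3b (27.3 RPKM in KO and 22.6 RPKM in WT), Reep3 and Armc1 lay nearest to Six3, within a distance of 0.017. Sssca1, Arcn1 and Vegfa lay nearest to Six5. Six4 is under the floor, so its nearest genes over it, Far1, Rsbn1 and Sos2, were at distances of 0.65 to 0.66.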

How the data were processed

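Per the file headers, the authors deposited 10627 rows with the read density of both libraries, raw and corrected p-values, an absolute fold change and a signed fold change score for KO against WT. CASAVA 1.8, Novoalign 2.08.02, FastQC, GRCm38 and mm10 are named in the submitters' processing notes, without their roles. Not given in the sources used here are the counting rules, the strand and the handling of reads with several alignments. The deposited density was taken to be RPKM on the strength of its values. Of 75 genes at 0 in WT and 171 at 0 in KO, 70 and 150 have fold changes that are whole multiples of 1 step (within 0.01 of a read). With GENCODE M21 exon lengths, 48 of 67 and 101 of 149 such genes gave the same depth within 0.5%, about 85640500 reads in KO and 91224400 in WT, so members have an estimated 5351 to 92392 reads in KO and 4286 to 93221 in WT. These reads are approximate, since exon lengths may differ from those the authors used.

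Symbols on more than 1 row (8) kept the row of highest mean density. The floor was the 50th percentile of mean density. GC content came from the longest GENCODE transcript, and the correction used 10 GC bins and 4 length bins of genes over the floor. The scripts (Python 3.11.15, pandas 2.3.3, SciPy 1.17.1) were tested on simulated data. The named genes are the members, Trp53, any listed gene of the fixed lists (each gene past 1.5-fold always), the 3 nearest genes and the neighbouring genes; 1 gene named by this rule is not reported here. Members and lists were chosen with earlier results of these data known. Alternatives were other pseudocounts (0.25 and 4), floors, scalings, a 2-fold rule, and corrections for GC content, length or both.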

Additional observations from a re-analysis of the deposited data

How the results depend on the processing

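The same alternatives for Six3, Six4 and Six5 were added after seeing the data, when the table was found to list these genes. No paired analysis was possible because there is 1 library per genotype, and none could be left out. Of 42 alternative values of member differences, 11 stayed within the counting interval, 28 moved beyond it with the same sign and 3, all of Six5, changed sign. List medians have no counting interval, and of their 36 alternative values 2 changed sign. Log2 differences for Six2, Six3, Six4, Six5, Eya1 and Eya4, in that order, were 0.15, 0.33, 0.41, 0.0083, 0.40 and 0.37 when centred on the median difference, 0.14, 0.31, 0.39, -0.0071, 0.38 and 0.35 with the authors' scaling, 0.20, 0.28, 0.15, 0.011, 0.14 and 0.020 with GC and length bins, 0.15, 0.30, 0.17, 0.013, 0.15 and 0.038 with GC bins alone, and 0.13, 0.23, 0.16, -0.022, 0.17 and 0.14 with length bins alone. At a pseudocount of 0.25 Six4 was 0.39, and at a pseudocount of 4 it was 0.23 and Eya4 0.26, as a pseudocount weighs most on low densities. List medians follow for partners, other regulators, signals and surface proteins, the beta-catenin list, renal vesicle genes and the H2AX pathway, in that order. They were 0.27, -0.021, 0.16, 0.17, 0.20 and 0.084 when centred, and 0.25, -0.037, 0.14, 0.15, 0.18 and 0.069 with the authors' scaling. With GC and length bins they were 0.20, -0.057, -0.057, 0.042, 0.10 and 0.057. With no floor the partner median was 0.17 and that of renal vesicle genes -0.20, since more genes enter. Genes at least 1.5-fold higher and lower numbered 35 and 128, against 101 and 583 with no floor, 17 and 42 when the floor was the 75th percentile and 10 and 46 at 2-fold, which follow from the genes or sizes admitted; 54 were higher when centred and 22 with a pseudocount of 4. The causes of the other shifts were not tested. Counting error is small at these depths, and the spread between embryos or libraries is not known here.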

Other observations

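The genes listed next to the members on their chromosomes did not share one direction. Epas1, the next listed gene beyond Six2 at 1066 kb, was low at 0.856 RPKM in KO and 1.52 RPKM in WT, and Prepl, 523 kb before Six3, was at 15.4 RPKM in KO and 14.2 RPKM in WT. Mnat1, 9.68 kb from Six4, was at 13.4 RPKM in KO and 12.4 RPKM in WT. Dmwd, 11.8 kb from Six5, was at 57.1 RPKM in KO and 63.6 RPKM in WT, a ratio of 0.897 (exact counting interval 0.876 to 0.919), and Fbxo46 on the other side at 9.94 RPKM in KO and 9.22 RPKM in WT. Tcf21, a transcription factor of stroma and podocytes that lies 284 kb from Eya4, was at 51.9 RPKM in KO and 79.5 RPKM in WT, a log2 difference of -0.61, while Eya4 itself was at 18.7 RPKM in KO and 14.98 RPKM in WT. Lactb2, 508 kb from Eya1, was at 1.58 RPKM in KO and 3.97 RPKM in WT. Kcnb2, 977 kb away on the other side of Eya1, was at 0.276 RPKM in KO and 0.179 RPKM in WT. Rtn1, 691 kb from Six4, was at 0.758 RPKM in KO and 0.570 RPKM in WT. On the other side of Eya4, 1110021L09Rik was at 2.70 RPKM in KO and 3.65 RPKM in WT. These 4 genes are under the floor.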
